A study of Anser cygnoides with 12 samples.

Results

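The subject is a set of 1160 goose gene models that vary together with a neighbour in model order from library to library. They were taken from a table of 23065 gene models measured in the breast (pectoral) muscle of geese of the Xingguo grey breed (listed as Anser cygnoides). Models were considered where the ID gives a chromosome other than 12, 23, 25, 31, 35 or 37 (13285 models on 33 chromosomes), where all 12 libraries held at least 10 counts (7657 models) and where the mean was under 300 CPM, a model's share of its library's counts scaled to a common total. That left 7469 eligible models. For each one, log2(CPM + 1), with CPM taken from the library's total count, was centred on the mean of its own group, and the 12 residuals of models with consecutive numbers were correlated. The 1160 models lie in the 626 pairs, out of 3107 eligible consecutive pairs, whose Pearson r was at least 0.8. The measured values themselves therefore chose these models, and their r, their run lengths and their spread are described without a test.

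High_IMF muscle (high intramuscular fat) was sequenced in 5 libraries, named M001, M006, M0011, M0027 and M0035, and low_IMF muscle (low intramuscular fat) in 7, named F001, F006, F009, F0010, F0011, F0013 and F0016. Every library is poly(A)-selected RNA of the same muscle. Age, sex, feeding and the fat content of each sample are not given in the sources used here, the letters M and F follow the groups exactly and are not explained, and no label says that each library is a different bird, so p-values measure only the spread between these samples. Total counts lay between 14623374 and 18458606 in high_IMF libraries and between 13481727 and 17750379 in low_IMF libraries. None of the IDs could be paired with a gene name, so the muscle label could not be checked against marker genes, no gene function can be given, and no sequence is shown.

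Genes next to each other on a chromosome often rise and fall together. Known reasons in vertebrates are promoters shared by genes that start back to back, stretches of open or closed chromatin that cover several genes, tandem copies left by gene duplication, and transcripts that read through from one gene into the next. A name of the form evm.model is the one the annotation program EVidenceModeler gives its predictions, and such predictions can split 1 gene into several models. Reads of models that overlap or share sequence cannot be told apart here. Bird genomes also hold many small, gene-dense chromosomes, in which neighbours lie close together. Model numbers give order only. The 13285 models cover 38.0% of the numbers up to the highest on each chromosome, so neighbours in the table can stand apart on the DNA, and consecutive numbers are the closest placement these data allow.

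The 626 pairs joined into 534 runs on all 33 chromosomes. Of these, 462 runs were single pairs (924 models), 57 held 3 models, 11 held 4, 3 held 5 and 1 held 6. The median r of the chosen pairs was 0.87, with 196 pairs at 0.9 or more, 61 at 0.95 or more and a highest value of 0.989. Just inside the limit stood models 462 and 463 of chr27 (r = 0.80024) and models 583 and 584 of chr24 (0.80033). Just outside stood models 37 and 38 of chr26 (0.79957) and models 394 and 395 of chr22 (0.79951). Among chromosomes with at least 50 eligible pairs, the chosen share ran from 5.45% on chr36 (3 of 55 pairs) to 26.7% on chr6 (23 of 86), with 51 pairs on chr2, the most of any chromosome.

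Chosen pairs were commoner among models with more reads. When the 3107 pairs were ranked by the lower mean CPM of their 2 models into 4 bins, 8.88% of the bin with fewest reads (1.10 to 4.62 CPM) was chosen, then 18.3%, 23.5% and 30.0% in the bin with most (16.7 to 237 CPM). The chosen models had a median of 19.3 CPM, against 14.4 CPM for the 3655 eligible models that have an eligible neighbour but lie in no chosen pair. CPM is a share of reads and not of molecules, because model lengths are not given. Differences in CPM between models are therefore differences in reads only. Counting noise lowers r, so the rule can favour models with more reads. How much of the rise over the bins it accounts for was not tested.

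Much of the covariation followed the way libraries were scaled. In M001 the median residual of the chosen models was -0.93 on the log2 scale and in M0011 -0.36, against 0.54 in M006 and 0.53 in M0027. M001 and M0011 also had the lowest TMM factors, 0.499 and 0.683, where the other 10 libraries lay between 1.01 and 1.36. TMM (trimmed mean of M-values) is a scaling that offsets a few very abundant transcripts, whereas dividing by the column total can leave all other models low where such transcripts fill a library. Whether such transcripts account for the low values of M001 and M0011 was not tested. On TMM-scaled CPM the median residual of the same models was -0.30 in M001, -0.11 in M0011, 0.18 in M006 and 0.27 in M0027. Within low_IMF the medians moved less, between -0.28 in F006 and 0.18 in F0013 on column totals and between -0.21 in F006 and 0.20 in F009 on TMM.

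**Figure D1:**
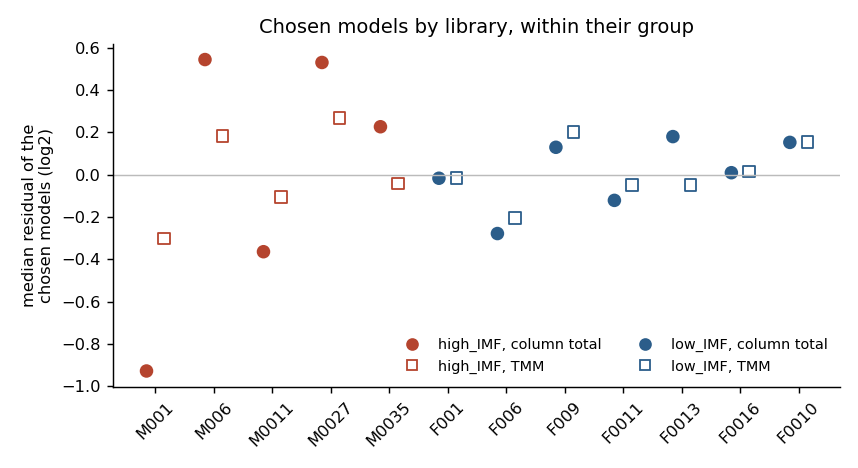
Median residual (log2) of the 1160 chosen models in each library, after subtraction of each model's group mean, with filled circles for CPM by column total and open squares for TMM-scaled CPM. M001 stands at -0.93 on column totals and at -0.30 on TMM, while low_IMF libraries stay between -0.28 and 0.20 on both.

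Of the 626 pairs, 205 (32.7%) also reached 0.8 on TMM-scaled CPM, and they hold 396 models. The median r of all 626 was 0.72 on that scale, 103 pairs fell under 0.5 and 3 were below 0. Those 3, named after their values were seen, were models 664 and 665 of chr14, 1027 and 1028 of chr14, and 47 and 48 of chr33. A further 42 pairs reached 0.8 on TMM only and are not among the 1160 models. Models 1027 and 1028 of chr14 had the lowest r on TMM, with r = 0.84 on column totals and -0.24 on TMM. Model 1027 had 7.19, 11.1, 8.49, 11.3 and 11.7 TMM-scaled CPM in M001, M006, M0011, M0027 and M0035, and model 1028 had 29.1, 20.8, 22.2, 20.5 and 26.3 in the same order. Model 1028 was thus at its highest in M001, where model 1027 was at its lowest.

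**Figure D2:**
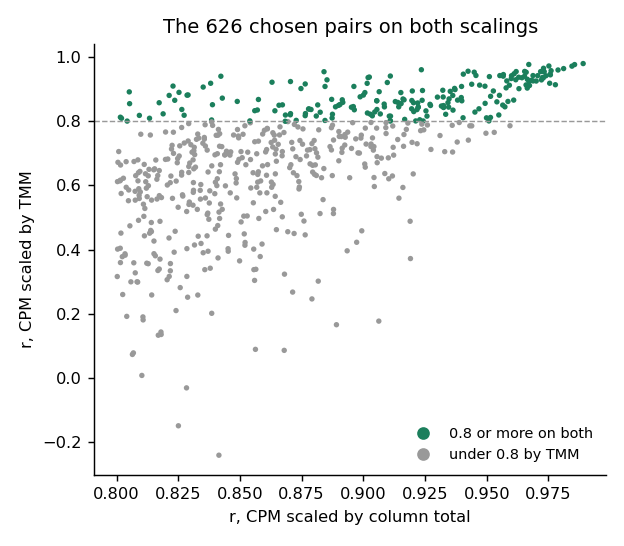
Each point is 1 of the 626 chosen pairs, with r over 12 residuals on column-total CPM (x axis) and on TMM-scaled CPM (y axis), and the dashed line at 0.8. The 205 pairs above the line are green, and pairs with r near 0.8 on the x axis spread down to -0.24 on the y axis.

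Neighbours reached the limit more often than models further apart on either scaling. On column totals 20.1% of consecutive pairs (626 of 3107) had r of at least 0.8, 12.9% of pairs 2 numbers apart, 11.5% at 3, 8.81% at 5, 10.6% at 10 and 8.50% at 50 (151 of 1777). On TMM the shares were 7.95%, 4.08%, 3.47%, 2.66%, 2.36% and 1.80%. The median r of consecutive pairs was 0.58 on column totals and 0.30 on TMM, and at 50 numbers apart it was 0.40 and 0.05. With the first principal component of the TMM residuals also removed, an alternative chosen after seeing the data, 4.44% of consecutive pairs and 0.675% of pairs 50 apart stayed at 0.8 or more. These pairs all come from the same 12 libraries and share models, and the shares are descriptions.

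**Figure D3:**
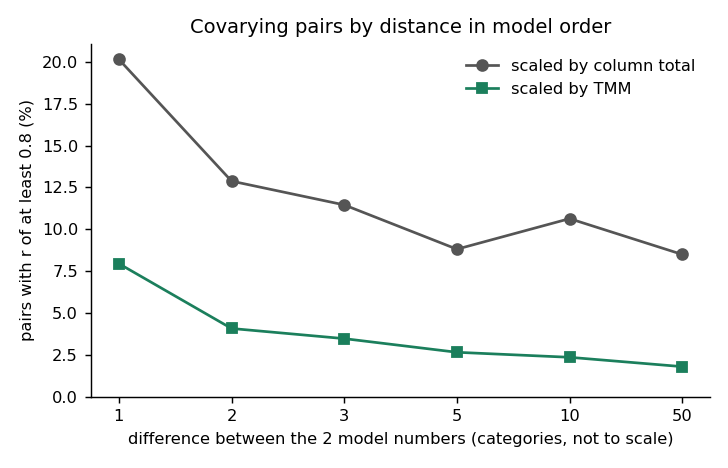
Share of eligible model pairs (%) with r of at least 0.8, by the difference between their numbers on a chromosome, with CPM scaled by column total (circles) or by TMM (squares). On column totals the share is 20.1% for neighbours and 8.50% at 50, and on TMM 7.95% and 1.80%.

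Single libraries carried part of this. Without M001, 338 of the 626 pairs stayed at 0.8 or more, while leaving out any other 1 library kept between 517 (M006) and 619 (F0016). M001 was the library whose removal lowered r most in 421 pairs, and it had the largest mean residual, always downward, in 389 of the 534 runs. For 273 pairs r stayed at 0.8 or more whichever library was left out. In the 191 runs formed by the 205 pairs, scored on TMM, the leading libraries were more evenly spread. M0027 led 44 of these runs (35 upward), F006 41 (37 downward), M001 34 (25 downward) and F0010 31 (24 downward). Both the set of runs and the scaling differ here, because the 534 runs were not scored on TMM. Deviations from the group mean on TMM were also correlated across the 7469 models between libraries of different groups. The highest values were 0.58 (M0027 and F0010) and 0.42 (M001 and F006). The lowest were -0.41 (M001 and F009) and -0.39 (M0027 and F006). Models are not independent replicates, and what these libraries have in common was not tested.

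The chosen pairs were also described in each group alone, where high r follows in part from the rule, which used the same residuals. Within high_IMF alone (5 libraries) the median r of the 626 pairs was 0.95 on column totals and 0.79 on TMM. Within low_IMF alone (7 libraries) it was 0.73 and 0.71. For all 3107 consecutive pairs the medians in high_IMF and low_IMF were 0.76 and 0.36 on column totals and 0.39 and 0.29 on TMM. On column totals 2 of the 626 pairs were under 0.5 in high_IMF and 131 in low_IMF. On TMM these numbers were 114 and 163. Among the 205 pairs that pass on both scalings, 124 reached 0.8 on TMM in each group by itself.

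A stricter subset, defined after the values were seen, held 83 pairs. They kept r of at least 0.8 on both scalings, in each group alone on TMM, and without any 1 library on both scalings. They comprise 163 models in 80 runs on 28 chromosomes, with a median r of 0.93 on TMM.

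The highest r of all belonged to models 2450 and 2451 of chr1, the start of a run of 4 that ends at 2453. Their r was 0.989 on column totals, 0.980 on TMM, 0.987 in high_IMF and 0.990 in low_IMF on TMM, and at least 0.972 on TMM without any 1 library. Model 2450 had 9.47, 17.5, 28.4, 14.05 and 16.5 TMM-scaled CPM in M001, M006, M0011, M0027 and M0035, and model 2451 had 46.9, 76.9, 102, 57.5 and 70.3 in that order. In low_IMF, model 2450 ran from 11.1 in F006 to 36.6 in F001, and model 2451 from 54.7 to 170 in the same libraries. Both models were thus lowest in M001 and highest in M0011 within high_IMF, and lowest in F006 and highest in F001 within low_IMF. Models 2452 and 2453 of the run were also highest in M0011 and in F001. None of the 4 passed the test between the groups (log2 fold changes from -0.64 to -0.37, edgeR adjusted p from 0.0639 to 0.423).

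Models 1870 and 1871 of chr2 (r = 0.986 on column totals, 0.977 on TMM) had a wide range within the groups and no group difference that passed. Model 1870 had 46.0, 199, 110, 313 and 94.7 TMM-scaled CPM in the high_IMF libraries and ran from 55.5 to 253 in low_IMF, with a median of 135. Its neighbour 1871 had 66.4, 133, 93.3, 186 and 91.8 in high_IMF and ran from 63.9 to 139 in low_IMF. The log2 fold changes were 0.02 (SE 0.43) and 0.18 (SE 0.26), with edgeR adjusted p of 0.984 and 0.659. Models 1317 and 1318 of chr11 (r = 0.985, 0.972 on TMM) were highest in M0027 (38.9 and 64.8 TMM-scaled CPM) and F0010 (58.3 and 86.95) and did not pass (edgeR adjusted p = 0.251 and 0.525).

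The longest run, models 353 to 358 of chr14, was not uniform. Its consecutive r lay between 0.81 and 0.97 on column totals, but on TMM they were 0.73, 0.94, 0.80, 0.49 and 0.36 from the low to the high numbers. Model 354 had 18.8, 34.97, 18.5, 59.2 and 22.3 TMM-scaled CPM in high_IMF, and in low_IMF it ran from 7.65 to 15.9 with a median of 13.9. The groups did not overlap, with every high_IMF library above every low_IMF library. Model 354 rose by 1.24 on the log2 scale (SE 0.29, edgeR adjusted p = 0.0106), although it did not pass with column-total scaling (0.93, adjusted p = 0.0914). Model 355 rose by 0.71 on the log2 scale (SE 0.22, edgeR adjusted p = 0.0408), a call lost in 12 of the 23 other fits, for example without M0027 (0.50, adjusted p = 0.115). The other 4 models did not pass, and their log2 fold changes ran from -0.47 (model 357, edgeR adjusted p = 0.0622) to 0.35 (model 358, adjusted p = 0.261). Of the 3 runs of 5, those of models 494 to 498 of chr10 and 1837 to 1841 of chr2 held no model that passed, and the third was models 762 to 766 of chr24. In the chr24 run 1 model passed, model 763, lower in high_IMF with 14.02 ± 4.33 TMM-scaled CPM (SD, n = 5) against 25.1 ± 7.65 (SD, n = 7), which is -0.84 on the log2 scale (SE 0.26, edgeR adjusted p = 0.0376). This call was lost in 12 of the 23 other fits, among them limma-voom (adjusted p = 0.0516).

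The difference of the group means is a measure that the rule did not use, because each group's mean was removed before r was computed. A call also depends on the spread within groups, which the rule did use, so the shares called are not wholly independent of it. The median within-group SD on TMM (log2) was 0.36 in the chosen models and 0.36 in the 3655 eligible models outside chosen pairs. In the models of pairs that pass on both scalings it was 0.47. Of the 1160 chosen models, all of which were tested, 206 (17.8%) differed between high_IMF and low_IMF at an adjusted p under 0.05 (edgeR quasi-likelihood test, adjusted over 14031 models), where 18.0% of all models tested did. The chosen models thus differed about as often as models in general. By direction, 69 (5.95%) were higher and 137 (11.8%) lower in high_IMF, where 8.47% and 9.54% of all models tested were. Of the 3655 eligible models outside any chosen pair, 385 (10.5%) were higher and 320 (8.76%) lower. The median log2 fold change was -0.12 in the chosen models and -0.02 over all 14031. Groups of libraries did not overlap for 97 chosen models (8.36%), 24 higher and 73 lower. Of all models tested, 7.80% did not overlap, 405 models higher and 689 lower.

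The balance of directions moved with libraries and scaling. Without M001 and M0011, 55 of the 1160 chosen models were higher and 75 lower, against 159 and 260 of the 3655 eligible models outside chosen pairs. Of all 14656 models tested in that fit, 596 were higher and 983 lower, 10.8% in all. The median log2 fold change of the chosen models was then 0.02. With counts scaled by column totals, which moves the median log2 fold change of all models to -0.42 and that of the chosen models to -0.49, 6 of the chosen models were higher and 219 lower, where 150 and 2451 of all 14031 models were. The chosen models thus followed the whole table in turning to lower calls. The sign was the same in all 23 other fits for each of the 206 models called. Among the 396 models of pairs that pass on both scalings, 15 (3.79%) were higher and 49 (12.4%) lower, 16.2% in all, where 8.47%, 9.54% and 18.0% of all models tested were. Without M001 and M0011 these numbers were 9 and 43 of the 396 models, beside the 596 and 983 of all 14656 models tested given above.

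In 49 of the 626 pairs (7.83%) both models passed in the same direction, 11 pairs higher and 38 lower in high_IMF, where 4.76% of all 3107 consecutive eligible pairs did. Among the 2481 pairs under r of 0.8 there were 99 (3.99%). Only 1 of the models passed in 120 chosen pairs, where this held for 827 of all 3107 consecutive eligible pairs. In 4 chosen pairs the models passed in opposite directions, against 27 of all 3107. Of the 205 pairs that pass on both scalings, 23 (11.2%) had both models called in 1 direction, 5 higher and 18 lower, and 0 had opposite calls. The log2 fold changes of the 2 models differed by a median of 0.22 in chosen pairs, 0.16 in pairs that pass on both scalings and 0.44 in pairs under 0.8. Residuals that move together also move the errors of both group means together. Closeness of fold changes and shared calls within a pair are therefore not independent of the rule. Among all 3107 consecutive eligible pairs, 56 were called alike as higher and 92 as lower. Whole runs were lower in high_IMF in 29 cases and higher in 10, 381 runs held no model that passed, and 4 held calls in both directions. The same counts for runs of eligible models outside chosen pairs were not made.

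**Figure D4:**
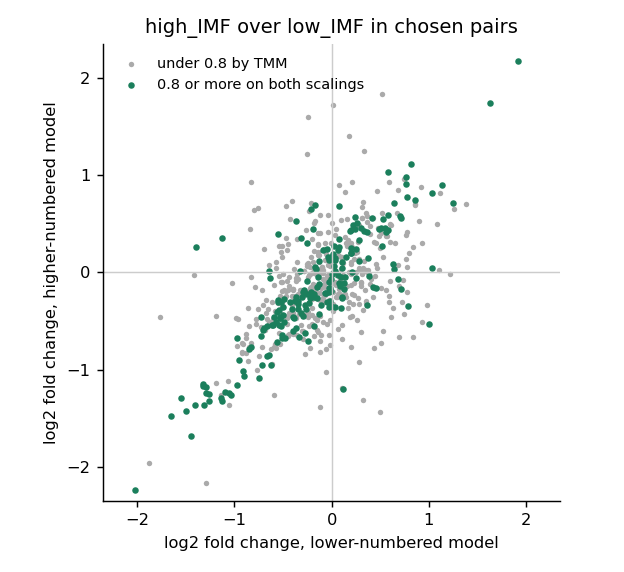
Log2 fold change (high_IMF over low_IMF, edgeR) of the lower-numbered (x axis) and higher-numbered (y axis) model of each of the 626 chosen pairs, with the 205 pairs that reach 0.8 on both scalings in green. The median difference between the 2 models is 0.16 in the green pairs and 0.29 in the grey ones.

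Runs of 3 or more models in which every model passed in 1 direction numbered 4, and all 4 were lower in high_IMF. They were models 358 to 361 of chr1, 819 to 821 of chr14, 343 to 345 of chr18 and 579 to 581 of chr30. Those of chr14 and chr30 were singled out after their values were seen. How often 3 or more consecutive eligible models in general were all called in 1 direction was not counted, so no share stands beside the 4 runs. The run on chr1 was the longest. Model 361 had 21.8, 12.3, 19.8, 22.4 and 18.3 TMM-scaled CPM in M001, M006, M0011, M0027 and M0035, and from 36.6 to 62.6 with a median of 41.7 in low_IMF. Model 360 had 8.15, 4.49, 5.72, 8.64 and 5.96 in high_IMF and from 12.3 to 19.5 with a median of 15.4 in low_IMF. No high_IMF library reached any low_IMF library in either model. The same held for model 359, at 16.7 ± 2.41 TMM-scaled CPM in high_IMF (SD, n = 5) and 36.9 ± 10.4 in low_IMF (SD, n = 7). It also held for model 358, which had the fewest reads of the run, at 2.21 ± 0.539 and 5.03 ± 1.48.

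The 4 models of the chr1 run had nearly the same fold change, with log2 values of -1.19 (SE 0.27), -1.14 (SE 0.21), -1.26 (SE 0.20) and -1.25 (SE 0.19) for models 358 to 361. Their edgeR adjusted p were 0.00997, 0.00291, 0.00150 and 0.00125. All 4 calls were kept in 21 of the 23 other fits and lost only in the fits of 6 libraries. Their consecutive r on TMM was 0.799, 0.67 and 0.85, higher in low_IMF (0.89, 0.89 and 0.80) than in high_IMF for the first 2 pairs (0.46 and 0.60), a difference that was not tested. F006 was the library whose removal lowered r most in these 2 pairs.

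On chr18, model 343 had 17.6, 40.5, 22.5, 22.2 and 22.96 TMM-scaled CPM in high_IMF and from 47.1 to 100.2 with a median of 70.6 in low_IMF. Model 345 had 5.16, 23.3, 8.26, 8.71 and 6.29 in high_IMF and from 16.5 to 74.6 with a median of 52.4 in low_IMF. M006 was the highest high_IMF library in all 3 models, and in models 344 and 345 it overlapped the low_IMF range. Consecutive r was 0.93 and 0.85 on column totals and 0.85 and 0.786 on TMM. Without M006, r of models 344 and 345 was 0.77 on column totals and 0.69 on TMM. The log2 fold changes were -1.55 (SE 0.25, edgeR adjusted p = 0.00153), -1.29 (SE 0.29, adjusted p = 0.00866) and -2.17 (SE 0.42, adjusted p = 0.00411). Without M001 and M0011, model 344 did not pass (-0.996, adjusted p = 0.0526).

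On chr14, model 820 had 42.6, 16.8, 34.9, 16.9 and 24.6 TMM-scaled CPM in high_IMF and from 50.8 to 89.8 with a median of 58.4 in low_IMF, with no overlap. Its neighbours 819 and 821 overlapped between the groups. The order of the high_IMF libraries was unlike that of most runs, with M001 highest and M006 and M0027 lowest, and r was higher on TMM (0.92 and 0.95) than on column totals (0.90 and 0.88). The log2 fold changes of the 3 models were -1.26, -1.32 and -1.16 (edgeR adjusted p = 0.0153, 0.00505 and 0.0176). On chr30, models 579, 580 and 581 had log2 fold changes of -0.86, -0.91 and -0.74 (edgeR adjusted p = 0.0196, 0.0125 and 0.0163). Their consecutive r was 0.90 and 0.90 on column totals but 0.70 and 0.73 on TMM. For models 580 and 581, r on TMM was -0.83 within high_IMF and 0.94 within low_IMF, a difference that was not tested. Model 581 stood between 10.3 and 12.9 TMM-scaled CPM in high_IMF and between 13.1 and 26.0 in low_IMF, with no overlap. Models 579 and 580 overlapped between the groups, reaching 8.79 and 9.04 in high_IMF and starting from 8.21 and 7.72 in low_IMF. Without M001 and M0011, models 579 and 580 did not pass (edgeR adjusted p = 0.102 and 0.0703). Model 579 also lost its call without M0011 alone (adjusted p = 0.0568).

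**Figure D5:**
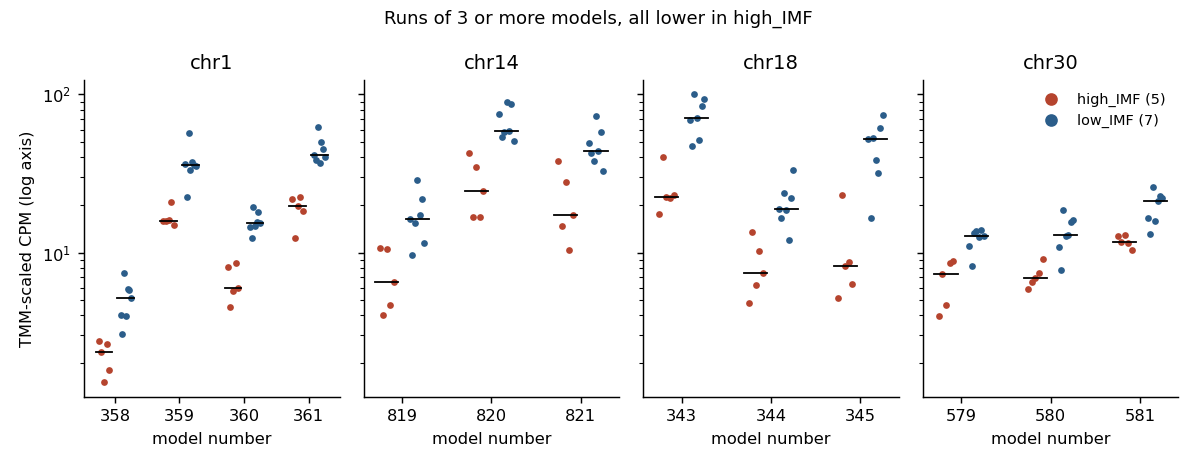
TMM-scaled CPM (log axis) of each library for the 4 runs of 3 or more models that were all lower in high_IMF, with black lines at group medians, red points for the 5 high_IMF and blue points for the 7 low_IMF libraries. On chr1 the groups do not overlap for any of the 4 models, while on chr18 M006 reaches into the low_IMF range for models 344 and 345.

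The lowest log2 fold change of any chosen model that passed was in a pair on chr33. Model 235 had 7.31, 32.5, 18.0, 18.9 and 19.9 TMM-scaled CPM in high_IMF and from 21.5 to 192 with a median of 94.2 in low_IMF. Model 234 had 4.32, 18.9, 10.7, 7.36 and 11.9 in high_IMF and from 6.26 to 86.2 with a median of 49.9 in low_IMF. F006 was the lowest low_IMF library for both models and lay within the high_IMF range. The log2 fold changes were -2.24 (SE 0.48, edgeR adjusted p = 0.00739) and -2.02 (SE 0.51, adjusted p = 0.0150), and r was 0.96 on both scalings. Without M001 and M0011, model 234 did not pass (-1.76, adjusted p = 0.0810).

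The highest log2 fold changes, in models 74 and 73 of chr16, rested on 1 library. Model 74 had 187 TMM-scaled CPM in M0027 and 10.3, 18.1, 27.1 and 23.3 in M001, M006, M0011 and M0035, against 5.11 to 20.7 with a median of 10.9 in low_IMF. Model 73 had 48.2 in M0027 and 5.76, 5.87, 9.45 and 11.4 in the other high_IMF libraries in that order, against 2.22 to 7.73 in low_IMF. Both passed with all libraries, at log2 fold changes of 2.17 (SE 0.59, edgeR adjusted p = 0.0220) and 1.91 (SE 0.49, adjusted p = 0.0168). Without M0027 the values were 0.74 (adjusted p = 0.136) and 0.92 (adjusted p = 0.0649), and neither passed. The correlation of this pair on TMM was 0.89 with all libraries and 0.61 without M0027.

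Models 554 and 555 of chr28 were both higher in high_IMF, with the highest mean r among runs called higher throughout, none of them longer than 2. Model 555 had 85.1, 23.6, 117, 23.7 and 41.2 TMM-scaled CPM in high_IMF and from 9.86 to 22.3 with a median of 18.6 in low_IMF, with no overlap. Model 554 had 90.2, 21.3, 111, 17.1 and 41.4 in high_IMF and from 10.7 to 26.3 in low_IMF, so that M006 and M0027 overlapped the low_IMF libraries. M001 and M0011 were the highest libraries, the reverse of most chosen models, and r was 0.96 on TMM and 0.92 on column totals. The log2 fold changes were 1.75 (SE 0.37, edgeR adjusted p = 0.00697) and 1.62 (SE 0.42, adjusted p = 0.0173). Without M001 and M0011 they were 0.79 (adjusted p = 0.0689) and 0.56 (adjusted p = 0.304), and neither passed. Model 554 also lost its call without M0011 alone (1.20, adjusted p = 0.0654) and with column-total scaling (0.98, adjusted p = 0.0505).

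Models that move together within groups did not always differ alike between groups. Opposite calls were seen in models 279 and 280 of chr9, 423 and 424 of chr14, 238 and 239 of chr18, and 462 and 463 of chr27, pairs named after their values were seen. On chr9, where r was 0.92 on column totals and 0.72 on TMM, model 279 had 48.1, 60.6, 50.8, 84.7 and 65.4 TMM-scaled CPM in high_IMF and from 31.8 to 45.5 in low_IMF. Model 280 had 61.6, 86.8, 60.4, 93.6 and 59.3 in high_IMF and from 93.1 to 155 in low_IMF. Model 279 rose (log2 fold change 0.70, SE 0.18, edgeR adjusted p = 0.0154), although not with column-total scaling (0.34, adjusted p = 0.413), and model 280 fell (-0.67, SE 0.19, adjusted p = 0.0241), although not without M001 and M0011 (adjusted p = 0.129) nor without M001, M0011 or M0035 alone (0.0506, 0.0653 and 0.0634 in that order). In the other 3 pairs r on TMM was 0.42, 0.26 and 0.32, and none of the 4 pairs reached 0.8 there.

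Few chosen pairs kept a fixed ratio of reads between their 2 models. The evenness of the split was measured by the chi-square of the 2 models' counts over the 12 libraries divided by its degrees of freedom, which is about 1 when the ratio varies by counting noise alone and which grows with depth. Its median was 6.47 in chosen pairs, 4.53 in pairs that pass on both scalings and 14.4 in pairs under 0.8. A value under 2 was found in 41 chosen pairs (6.55%), of which 24 pass on both scalings, and in 27 of the 2481 pairs under 0.8 (1.09%). Among the pairs that pass on both scalings and reach 0.8 in each group on TMM, the lowest value, 0.839, belonged to models 643 and 644 of chr5, a pair also named after its values were seen. Model 643 had 4.32, 4.29, 6.35, 7.43 and 5.20 TMM-scaled CPM in high_IMF and a median of 8.62 in low_IMF, and model 644 had 2.64, 2.19, 3.25, 4.12 and 2.82 and a median of 3.92. Model 643 passed (log2 fold change -0.72, edgeR adjusted p = 0.0371) and model 644 did not (-0.46, adjusted p = 0.217), although the ratio of their counts varied by no more than counting noise. The call of model 643 was lost in 12 of the 23 other fits, for example without M001 (-0.63, adjusted p = 0.0851).

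In the strict subset of 83 pairs, both models passed in the same direction in 12 pairs, 4 higher and 8 lower in high_IMF. That is 14.5% of the pairs, where 4.76% of all consecutive eligible pairs were called alike. The closeness of fold changes and the shared calls within such pairs are again tied to the rule. In this subset 0 pairs had opposite calls, where only 27 of all 3107 consecutive eligible pairs did. Of its 163 models, 10 were higher and 19 lower, 17.8% in all, where 18.0% of all models tested passed. The lower pairs were models 577 and 578 and models 1244 and 1245 of chr3, 1251 and 1252 of chr5, 819 to 821 of chr14 (as 2 pairs), 196 and 197 of chr18, 221 and 222 of chr22, and 234 and 235 of chr33. The higher pairs were models 354 and 355 of chr14, 283 and 284 of chr16, 81 and 82 of chr27, and 554 and 555 of chr28. Strict refers to r and not to these calls, some of which were lost in other fits. Examples given above are models 355 of chr14, 234 of chr33, and 554 and 555 of chr28. Within these 12 pairs the log2 fold changes of the neighbours differed by 0.05 to 0.53.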

How the data were processed

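The authors deposited raw counts per gene model, whole numbers with no normalization, in 1 table with a column for each of the 12 libraries. Per the submitters' processing notes, HISAT2 and DESeq2 were used, with no version or role stated. The counting program, genome build, annotation and strand setting are not given in the sources used here. The reference gene table, of a Taihu goose assembly, held 0 of the 23065 IDs, so the marker lists for muscle, fat, blood, connective tissue, vessel and immune cells matched 0 models and were not run.

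The selection rule, the libraries left out and the alternatives were chosen with earlier results of these data known. Group differences were tested with edgeR 4.0.16 in R 4.3.3 on all libraries and the whole table (filterByExpr defaults, library sizes kept at the full totals, TMM, quasi-likelihood F-test, Benjamini-Hochberg adjustment over 14031 models, threshold 0.05). Fold changes are high_IMF over low_IMF, with standard errors derived from the F statistic. TMM-scaled CPM divides counts by the total times the TMM factor. Named models are those of the 3 longest runs, the 3 other pairs with the highest r, the 2 highest and 2 lowest log2 fold changes among chosen models that passed at 1 CPM or more with their runs, the longest runs called throughout in each direction, and the pairs at the limit. Where others are named, the text says that they were chosen after their values were seen. Alternatives used DESeq2 1.42.0 and limma 3.58.1. The edgeR fit and the selection rule were tested on simulated data. No 2 libraries agreed within sampling noise (lowest chi-square per model 32.6 over 66 pairs). The library numbers 1, 6 and 11 occur in both groups, the labels do not explain them, and the main fit did not treat the samples as pairs.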

Additional observations from a re-analysis of the deposited data

Results flagged for a closer look

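Dixon's test was applied to 104 groups of per-library values, those of the named models and 3 measures over all chosen models. In 9 of them 1 library stood far from its group's other libraries. The limit flags about 1 in 20 groups of normally distributed values. That rate need not hold here, because the CPM were not log-transformed and most named models were picked by their values. All 9 were the highest library of their group. M0027 stood apart in high_IMF for models 73 and 74 of chr16 (48.2 and 187 TMM-scaled CPM, next highest 11.4 and 27.1), for models 765 and 766 of chr24 (311 and 146, next highest 232 and 66.8) and for model 359 of chr1 (21.0, next highest 16.03). M006 stood apart in high_IMF for models 343 and 345 of chr18 (40.5 and 23.3, next highest 22.96 and 8.71). F0010 stood apart in low_IMF for model 1837 of chr2 (28.7, next highest 20.5) and model 766 of chr24 (94.1, next highest 57.8). Neighbours that were picked for moving together tend to be flagged together, so these are not 9 separate events.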

How the results depend on the processing

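The number of chosen models (1160) was 471 on TMM and 466 on median-ratio scaling, 265 on TMM with the first component removed (chosen after seeing the data), 583 without M001 and M0011, 686 with at least 50 counts, 1903 at r of 0.7 and 377 at r of 0.9, and 712 (without M001) to 1360 with each library left out. Of the 69 chosen models higher and 137 lower in high_IMF, 0 changed sign. Without M001 and M0011, 75 were lower, where 10.8% of all models tested passed in either direction, against 18.0% with all libraries. Without F001 and F009, 35 were higher and 79 lower, where 574 and 856 of all 13770 models tested were (10.4% in all). Of the 471 models chosen on TMM, 30 were higher and 51 lower, where 1188 and 1338 of all 14031 models tested were. With column totals 6 were higher and 219 lower, where 150 and 2451 of all models tested were. With each library left out, 47 to 75 were higher and 93 to 159 lower. In those fits the share of all models tested that passed ran from 11.9% (without M0011) to 18.9% (without F006). The 49 pairs called alike numbered 29 without F001 and F009 and 35 to 60 with each library left out. The share of all consecutive pairs called alike was not counted in the fits that left libraries out, so these counts have no share beside them. Among the 247 pairs chosen on TMM, 31 were called alike, where 148 of all 3107 consecutive eligible pairs were. Libraries that share a number had correlations of deviations of 0.0556 (M001 and F001), -0.257 (M006 and F006) and 0.172 (M0011 and F0011). Such correlations cannot show whether the samples are paired, which stays unknown. With the shared numbers as a replicate block over 6 libraries, 0 chosen models and 0 pairs passed (13 models of the whole table did). The same 6 libraries without the block also gave 0 chosen models and 0 pairs. Named models changed direction in no fit where they were called, and 108 calls of single named models were lost over all 23 fits. Counting noise lowers r, so pairs with few reads may reach 0.8 less easily, and its part in the counts of chosen models was not tested.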
